A study of Mus musculus with 12 samples.

Results

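Chronic hypoxia was compared with normoxia in ventricular tissue of female C57BL/6 mice, 3 libraries against 3 of the 12 in the series, over all genes that had enough reads. Hypoxic females lived in a chamber whose oxygen was lowered in steps of 1% per day for 14 days to 7%, and then stayed at 7% for 2 weeks. Normoxic females breathed 20.9% oxygen for 4 weeks. The other 6 libraries are males of the same strain under the same 2 conditions. The labels name no genotype besides the strain and give no age, and they neither separate the left from the right ventricle nor state that each library came from its own animal. The p-values therefore measure the spread between these libraries, which may be technical. The libraries are called normoxia 1 to 3 and hypoxia 1 to 3 below and refer to females unless males are named.

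Mammals under lasting low oxygen make more red blood cells, and haemoglobin and the haem enzymes are the products by which that shows in blood-containing tissue. Inside cells, low oxygen stops the hydroxylation that marks the hypoxia-inducible factors (HIF) for destruction, and their targets include glycolytic enzymes, vessel growth factors and genes that lower the oxygen demand of mitochondria. The adult ventricle runs mainly on fatty acids, whose oxidation genes are controlled by the nuclear receptor PPAR alpha, and its cardiomyocytes rarely divide, so mitotic transcripts are scarce. Chronic hypoxia also raises the pressure in the lung circulation, a load on the right ventricle under which matrix and fetal cardiac genes are known to change.

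Library totals of the 6 female libraries ran from 16110000 to 17818700 estimated counts. Xist, the non-coding RNA of the inactive X chromosome, was at 268, 288 and 269.6 read counts scaled to library size (CPM) in normoxia 1, 2 and 3 and at 248, 330.4 and 339 CPM in hypoxia 1, 2 and 3, and all 6 libraries match their female labels. Myl2, the regulatory light chain of ventricular muscle, was at 9147, 9319 and 8603 CPM in normoxia and 8580.3, 7203 and 6817 CPM in hypoxia, while the atrial light chain Myl7 was below 1 CPM in each of the 6. No lung epithelium marker among the 6 looked for had enough reads to be tested. In bulk tissue, fewer cells of a type and less RNA per cell cannot be told apart. Normoxia 3 stood apart: 151 genes were at least 2-fold above and 243 at least 2-fold below all of the other 5 libraries, against 23 to 31 and 50 to 81 genes for the rest. Hypoxia 1 lay nearer to the normoxia libraries than hypoxia 2 and 3 did, at 2.00 on the first principal component of the female libraries (33.2% of the variance) against 45.6 and 44.4, with normoxia 1, 2 and 3 at -18.2, -24.8 and -49.1. The second component (24.2%) set normoxia 3 at -50.2 against 37.1 and 36.0 for normoxia 1 and 2.

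Higher transcripts in the female ventricle included those of haemoglobin, of the haem synthesis enzyme Alas2, of mitosis and of extracellular matrix. Lower ones included transcripts of fatty acid oxidation, of the sodium channel subunit Scn4b, of the water channel Aqp1 and of the HIF target Ankrd37. Alas2, Hba-a1, Hbb-bs, Scn4b, Aqp1 and Ankrd37 also passed the threshold given below when the 6 female libraries were fitted alone. No tested gene of the mitosis, matricellular, collagen or fatty acid lists did. Of 13960 genes tested, 836 (5.99%) passed an adjusted p of 0.05 (edgeR's quasi-likelihood test, Benjamini-Hochberg adjustment over all genes tested), 554 (3.97%) higher and 282 (2.02%) lower in hypoxia. At least 2-fold changes were seen in 264 of them, 206 higher and 58 lower. The median log2 fold change of all genes tested was -0.02. Counts of rises and falls within gene lists below are to be read beside the 3.97% and 2.02%. "Rose" and "fell" are used below only of genes past that threshold, and fold changes are log2 values of hypoxia minus normoxia with their standard error (SE). For 831 of the 836 genes the 3 hypoxia libraries were all above or all below the 3 normoxia libraries, which held for 25.9% of all genes tested. Since the 836 were picked by a test on the same counts, this separation is no separate support for them. An exact permutation test of 3 libraries against 3 cannot go below p = 0.1, so single genes rest on the spread that the fit estimates across all genes.

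**Figure D1:**
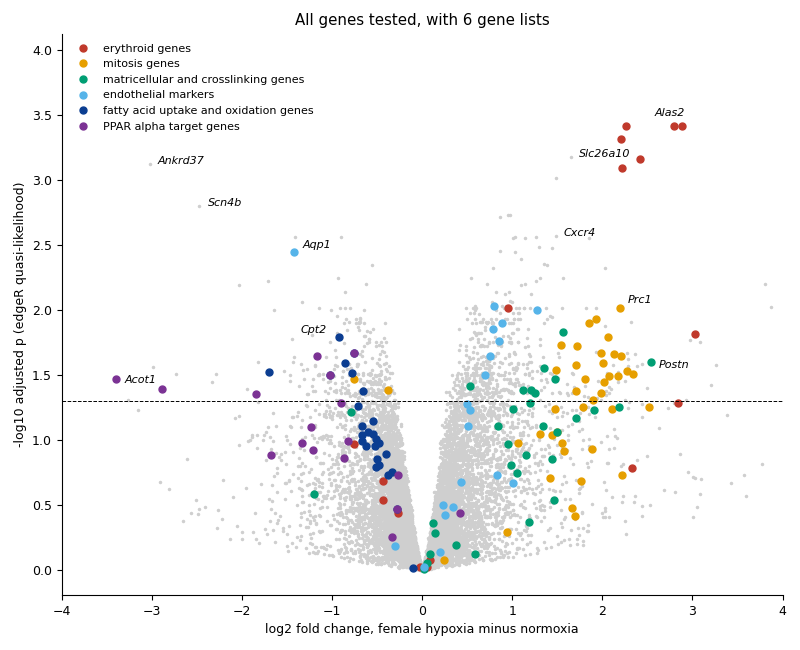
Genes tested in female ventricle, with the log2 fold change of hypoxia against normoxia on the x axis (range -4 to 4) and -log10 of edgeR's adjusted p on the y axis. Each point is 1 gene, colours mark 6 gene lists and the dashed line is an adjusted p of 0.05. The 59 genes outside the range of the x axis, Hdgfl2 and Zfp746 among them, are not drawn. Erythroid genes reach the smallest p-values on the right, mitosis and matricellular genes lie to the right just above and below the line, and fatty acid oxidation genes lie to the left.

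The size of the list of changed genes depended strongly on the libraries in the fit. The same test gave 40 genes when fitted to the 6 female libraries alone, with 4 in place of 8 residual degrees of freedom, and DESeq2 gave 1693. Without normoxia 3 it gave 997 genes, of which 543 were among the 836, so 293 calls were lost and 454 gained. Without normoxia 1 or normoxia 2 it gave 233 or 147, with 612 or 692 of the 836 lost. Without hypoxia 1 it gave 2081, with 810 of the 836 kept and 1271 gained, and without hypoxia 2 or hypoxia 3 it gave 75 or 55. Without normoxia 3 and hypoxia 1 together it gave 2655 of 14244 genes tested, 1492 higher and 1163 lower. The fit without hypoxia 1 had 1255 higher and 826 lower of 14331 tested. The fit without normoxia 3 had 642 higher and 355 lower of 14290. List counts from these fits below are to be read beside these totals. All of the 836 that were tested kept their direction under each of these settings (831 in the 6 female libraries alone). Because the groups did not overlap in 831 of the 836, leaving libraries out could hardly reverse a direction. The kept directions are therefore no separate support for the calls. Offsets for average transcript length gave 362 genes, and 6 of the 836 changed sign under them. These offsets lost 501 of the 836 calls, among them Vwf, Clspn, Itpr2, Pfkp, Col12a1, Fn1 and Bhlhe40, which are described below.

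**Figure D2:**
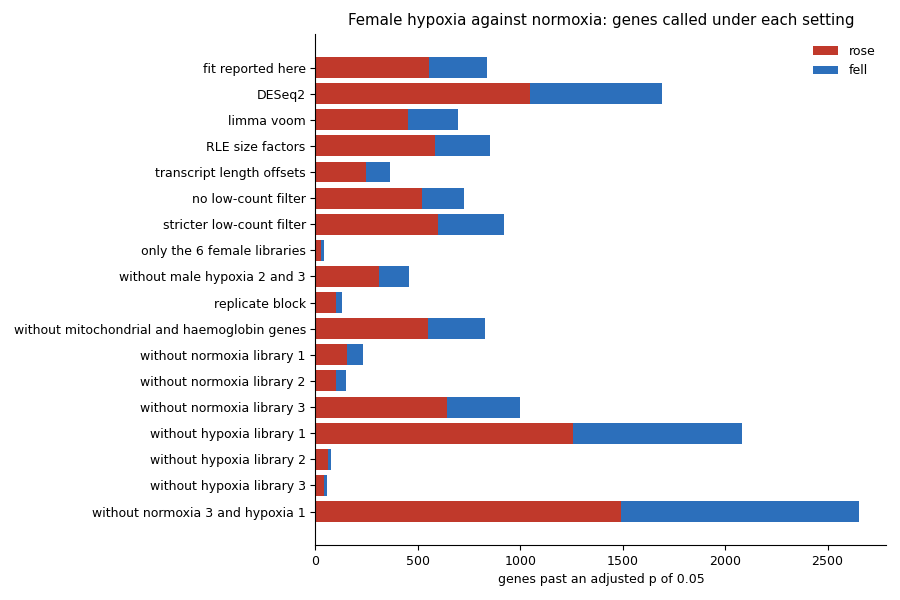
Number of genes past an adjusted p of 0.05 on the x axis for each setting on the y axis, stacked as genes that rose and genes that fell in female hypoxia. The fit reported gives 836 genes, the 6 female libraries alone 40, and the fit without normoxia 3 and hypoxia 1 gives 2655.

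Haemoglobin transcripts and that of the haem synthesis enzyme Alas2 rose. Of 18 tested erythroid genes 8 rose and 0 fell, against 3.97% and 2.02% of all genes tested, and their median log2 fold change was 1.58. Alas2 (ENSMUSG00000025270), the first and rate-limiting enzyme of haem synthesis in red cells, was at 12.4, 14.2 and 15.2 CPM in normoxia 1, 2 and 3 and at 123, 76.3 and 91.7 CPM in hypoxia 1, 2 and 3. The groups were far apart, and hypoxia 1 was the highest library. The log2 fold change was 2.79 ± 0.24 (SE; adjusted p 0.000381). Hbb-bs, a beta-globin gene, went from 595, 478 and 635 CPM to 3329, 2215 and 2684 CPM (2.27 ± 0.18; adjusted p 0.000381). The alpha-globin gene Hba-a1 went from 644, 600.2 and 795 CPM to 4255, 2304 and 2962 CPM (2.22 ± 0.22; adjusted p 0.000801). Hba-a1 and Hba-a2, like Hbb-bs and Hbb-bt, are near-identical copies between which reads can be split in more than 1 way, so their sum is the safer value. Haemoglobin genes together took 0.169 ± 0.0166% of counts in normoxia and 0.904 ± 0.183% in hypoxia (SD, n = 3), and 1.09%, 0.721% and 0.904% in hypoxia 1, 2 and 3. With the haemoglobin genes and mitochondrial genes removed, 4 of the 14 erythroid genes left rose and the median was 0.07, and in the 6 female libraries alone 6 of 17 rose with a median of 0.95.

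Other genes of red cells and their iron supply varied more. Bpgm, the enzyme that makes the 2,3-bisphosphoglycerate that loosens oxygen from haemoglobin, rose by 0.95 ± 0.15 (21.97, 20.6 and 16.1 CPM against 44.8, 30.5 and 38.1 CPM; adjusted p 0.00971). It was named after its values were seen. The transferrin receptor Tfrc, which brings iron into red cell precursors and other cells, was at 124, 110.0 and 21.1 CPM and 75.5, 97.3 and 92.6 CPM, with normoxia 3 far below every other library (0.06 ± 0.48; adjusted p 0.960). Among 22 genes of iron and haem handling 0 passed by edgeR, DESeq2 or limma voom (1 at an unadjusted p under 0.05). Its best-known member Hmox1, the haem-degrading oxygenase, was at 13.01, 14.4 and 51.8 CPM and 42.6, 52.2 and 58.5 CPM. Normoxia 3 fell inside the hypoxia range there and normoxia 1 and 2 well below it. The fold change was 0.95 ± 0.44 (adjusted p 0.203), and 1.90 without normoxia 3 (adjusted p 0.00494). Of the other blood lineages, 3 of 4 platelet and megakaryocyte markers rose. Ppbp, a chemokine of platelet granules, went from 0.451, 0.175 and 0.370 to 1.42, 1.53 and 2.08 CPM (2.32 ± 0.40; adjusted p 0.0123), and platelet factor Pf4 from 11.5, 12.6 and 7.03 to 15.3, 21.04 and 23.9 CPM (0.95 ± 0.24; adjusted p 0.0414). Of 7 lymphocyte and 7 neutrophil markers with enough reads 0 passed by edgeR, DESeq2 or limma voom (1 and 0 at an unadjusted p under 0.05). The part of blood volume or blood cells left in the tissue in these values was not tested.

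**Figure D3:**
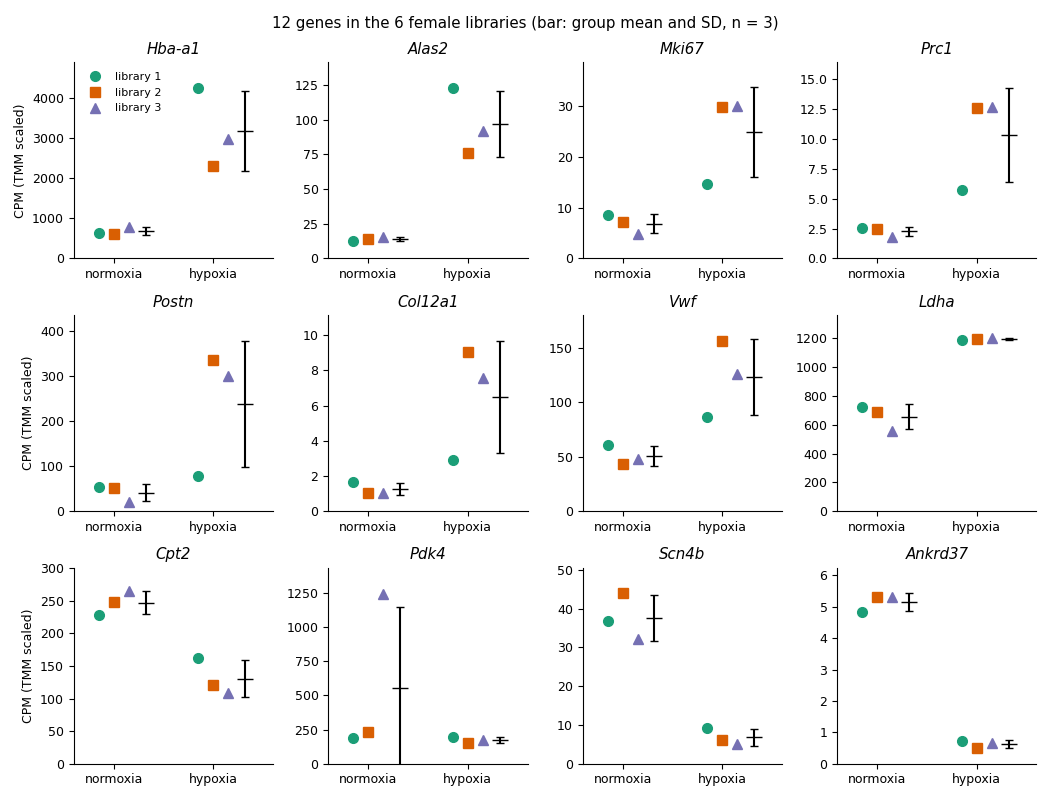
CPM on the y axis (linear, from 0) of 12 genes in the normoxia and hypoxia libraries of females; symbols mark libraries 1, 2 and 3 of each group and the bar is the group mean with its SD (n = 3). In Hba-a1 and Alas2 hypoxia 1 is the highest library, in Mki67, Prc1, Postn and Col12a1 it is the lowest of the hypoxia libraries, and in Pdk4 normoxia 3 alone is high.

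Many transcripts of mitosis were among the genes that rose. Of 41 tested genes for chromosome condensation, spindle and cytokinesis 21 rose, 2 fell and 18 did not pass, and the median log2 fold change was 1.79. Prc1 (ENSMUSG00000038943), which bundles microtubules of the central spindle, was at 2.51, 2.46 and 1.79 CPM in normoxia and 5.74, 12.5 and 12.6 CPM in hypoxia. All 3 hypoxia libraries were above normoxia, hypoxia 1 by the least. Its log2 fold change was 2.19 ± 0.35 (adjusted p 0.00971). Kif11, the motor that pushes spindle poles apart, went from 2.32, 1.64 and 1.29 CPM to 3.91, 8.16 and 8.02 CPM (1.93 ± 0.33; adjusted p 0.0116). Mki67, the proliferation antigen of dividing cells, went from 8.57, 7.25 and 4.81 CPM to 14.6, 29.9 and 29.98 CPM (1.85 ± 0.33; adjusted p 0.0127). Kif4, a chromosome-bound motor, was at 1.16, 0.994 and 0.987 CPM and 2.43, 4.49 and 6.19 CPM (2.06 ± 0.38; adjusted p 0.0162). In all 4 genes hypoxia 1 lay between normoxia and the other hypoxia libraries.

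The 2 members that fell were the securin Pttg1, which holds back the separation of sister chromatids, at 75.4, 73.98 and 105 CPM and 57.3, 48.5 and 44.1 CPM, and the centromere histone Cenpa, at 28.9, 27.8 and 28.7 CPM and 22.3, 22.6 and 20.9 CPM. Their log2 fold changes were -0.76 ± 0.18 and -0.38 ± 0.09 (adjusted p 0.0338 and 0.0414). In cells that divide, both peak with the genes that rose. Genes of DNA replication changed less: against 3.97% of all genes tested, 2 of 33 rose and 0 fell, with a median of 0.44. These were the transcription factor E2f1 (2.77, 2.98 and 2.03 CPM against 4.26, 5.81 and 5.10 CPM; 0.96 ± 0.23, adjusted p 0.0362) and the checkpoint adaptor Clspn (0.902, 0.643 and 0.185 CPM against 1.24, 2.96 and 2.71 CPM; 1.99 ± 0.53, adjusted p 0.0490). Among 14 cell cycle inhibitors, D cyclins and Trp53, the rises were Trp53 itself (0.83 ± 0.20; adjusted p 0.0374) and cyclin Ccnd3 (0.43 ± 0.11; adjusted p 0.0452), and the list's median of 0.03 changed sign between scalings. Without normoxia 3 the mitosis list had 13 rises and 0 falls. Without hypoxia 1 it had 32 and 2, against 1255 and 826 of all 14331 genes tested. In the 6 female libraries alone 0 of its genes passed with the same median of 1.79. In that smaller fit only 40 genes passed in all.

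The promoters of the mitosis list were read from RefSeq (GRCm38.p6, 250 bases before to 50 after the start; 35 of the 42 list genes matched). Mitotic promoters are known for a CCAAT box (CCAAT) close upstream of a cell cycle homology element (TTTGAA or TTCGAA). Searched on both strands, with overlapping matches counted, 23 of the 35 windows (65.7%) held both, against 5.9% of 10542 windows of genes tested here and 7.7% of 27025 windows in all. The search took both elements anywhere in the window, without regard to their order, spacing or shared strand. The windows of the 2 genes with the smallest p in the list are shown, plus strand as in the reference, with these letters or their reverse complement in capitals.
Prc1, chr7:80294201-80294500 (+): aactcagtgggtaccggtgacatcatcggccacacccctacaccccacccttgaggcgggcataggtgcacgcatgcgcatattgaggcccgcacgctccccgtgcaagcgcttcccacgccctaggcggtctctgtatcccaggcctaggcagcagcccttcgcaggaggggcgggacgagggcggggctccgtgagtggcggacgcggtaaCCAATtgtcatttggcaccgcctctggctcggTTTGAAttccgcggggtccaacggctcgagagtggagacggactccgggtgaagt
Kif11, chr19:37376132-37376431 (+): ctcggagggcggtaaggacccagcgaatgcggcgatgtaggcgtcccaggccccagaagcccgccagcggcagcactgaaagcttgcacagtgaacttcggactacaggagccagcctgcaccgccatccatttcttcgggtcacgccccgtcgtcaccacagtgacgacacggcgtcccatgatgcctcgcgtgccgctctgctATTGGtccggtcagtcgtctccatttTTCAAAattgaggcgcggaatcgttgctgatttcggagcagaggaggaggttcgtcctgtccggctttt
In Prc1 both elements read forwards, and in Kif11 both read as their reverse complement, ATTGG and TTCAAA. A match describes the letters in the window and is no evidence of binding in these libraries.

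Part of the extracellular matrix genes rose. Of 32 genes of matricellular and crosslinking proteins 8 rose and 0 fell (median 1.14). Postn (ENSMUSG00000027750), periostin, made by activated fibroblasts, was at 52.6, 51.1 and 19.5 CPM and 78.6, 335 and 301 CPM. Hypoxia 2 and 3 were several-fold above everything else, hypoxia 1 only just above normoxia 1 and 2, and normoxia 3 the lowest. The log2 fold change was 2.54 ± 0.53 (adjusted p 0.0252). Fibronectin Fn1, a scaffold for cell adhesion, went from 44.97, 56.4 and 39.7 CPM to 80.7, 156 and 179.5 CPM (1.56 ± 0.28; adjusted p 0.0148). The collagen-binding protein Sparc went from 437, 402 and 308 CPM to 536, 1152 and 1247 CPM (1.35 ± 0.30; adjusted p 0.0279). The crosslinking enzyme Lox was at 3.87, 3.10 and 7.77 CPM and 7.70, 16.7 and 16.7 CPM, so that hypoxia 1 was just below normoxia 3 and the groups overlapped (1.48 ± 0.35; adjusted p 0.0341). The other rises were the crosslinking enzyme Loxl1, the proteoglycan Bgn, elastin Eln and the microfibril protein Mfap5, with fold changes from 0.53 to 1.25.

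Few collagens passed. Of 21 tested 2 rose, 0 fell, and the median was 0.72. Col12a1, a collagen that sits on the surface of fibrils, went from 1.67, 1.05 and 1.05 CPM to 2.90, 9.04 and 7.55 CPM (2.37 ± 0.48; adjusted p 0.0218), and the fibril collagen Col5a2 from 37.04, 36.3 and 29.3 CPM to 41.97, 94.2 and 95.9 CPM (1.18 ± 0.29; adjusted p 0.0383). The main fibrillar collagen Col3a1 was at 217, 207 and 58.6 CPM and 167, 416 and 399 CPM, with hypoxia 1 below normoxia 1 and 2 (1.03 ± 0.44; adjusted p 0.173). Adamts2, which trims procollagen, was the 1 rise among 18 matrix proteases and inhibitors (1.14 ± 0.26; adjusted p 0.0308). Ltbp4, which stores latent TGF beta in the matrix, was the 1 rise among 21 genes of that pathway (1.03 ± 0.21; adjusted p 0.0217). Both shares are near the 3.97% of all genes tested that rose. Without hypoxia 1 the rises were 17 of the matricellular and 11 of the collagen list, against 1255 of all 14331 genes tested. Without normoxia 3 the rises were 7 and 1, against 642 of all 14290 genes tested. Both lists had 0 falls each time. In the 6 female libraries alone 0 genes of either list passed.

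Few fibroblast markers passed. Of 17 tested 2 rose (Meox1 and Mfap5), 0 fell, the median was 0.28, and their summed level ran from 2052 to 2427 CPM in normoxia and from 1997 to 2720.5 CPM in hypoxia, with no tested marker at 0. Of 11 myofibroblast genes 3 rose, Fn1, Postn and Meox1. Meox1, a transcription factor of activated fibroblasts, was at 28.1, 18.2 and 14.7 CPM and 30.96, 47.3 and 58.7 CPM (1.17 ± 0.30; adjusted p 0.0435). The smooth muscle actin Acta2, the usual marker of myofibroblasts, was at 188, 117 and 56.2 CPM and 131, 155 and 252 CPM, with wide overlap (0.58 ± 0.45; adjusted p 0.451). Hypoxia 1, 2 and 3 stood at medians of -0.06, 0.51 and 0.56 from the normoxia mean in the fibroblast list. The part of fibroblast number in the matrix changes was not tested.

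Part of the endothelial genes rose, with 1 clear exception. Of 20 markers 7 rose, 1 fell, and the median was 0.52. The von Willebrand factor Vwf, which tethers platelets, went from 61.1, 43.3 and 47.8 CPM to 86.6, 157 and 126 CPM (1.28 ± 0.21, adjusted p 0.0101). With average transcript length offsets Vwf did not pass (1.02, adjusted p 0.104). The endothelial phosphatase Ptprb went from 134, 147 and 169.8 CPM to 209.9, 294 and 329 CPM (0.88 ± 0.16; adjusted p 0.0127). The matrix glycoprotein Mmrn2 went from 50.4, 41.99 and 48.4 CPM to 73.5, 81.1 and 89.6 CPM (0.79 ± 0.12; adjusted p 0.00926). In each the groups were apart, with hypoxia 1 the lowest of its group. The other rises were the junction cadherin Cdh5, the TGF beta co-receptor Eng, the nitric oxide synthase Nos3 and the adhesion molecule Esam, from 0.70 to 0.85.

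The exception was Aqp1 (ENSMUSG00000004655), the water channel of capillary endothelium and red cells, at 384, 464 and 416 CPM in normoxia and 119, 184 and 170.5 CPM in hypoxia. Here hypoxia 1 was the library farthest from normoxia. The fall of -1.42 ± 0.18 (adjusted p 0.00358) was past the threshold in every setting run, the 6 female libraries alone included. Among 32 genes of vessel growth 3 rose and 0 fell. The chemokine receptor Cxcr4, a guide of vessel sprouts and of immune cells, went from 3.74, 3.04 and 2.90 CPM to 8.47, 10.6 and 8.02 CPM (1.48 ± 0.17; adjusted p 0.00267) and passed in every setting run. Notch4, an endothelial Notch receptor, rose by 0.72 ± 0.13 (adjusted p 0.0127; 1.06 and 0.215 with average transcript length offsets) and the transcription factor Sox18 by 0.88 ± 0.17 (adjusted p 0.0187). The growth factor Vegfa itself was at 374, 369.6 and 457 CPM and 369, 403 and 381 CPM, with overlapping groups (-0.06 ± 0.15; adjusted p 0.843). Of 16 pericyte and smooth muscle markers 1 rose, against 3.97% of all genes tested, the mural Notch receptor Notch3 (0.75 ± 0.17; adjusted p 0.0306). Without normoxia 3 and hypoxia 1 the endothelial list had 13 rises and the vessel growth list 13, with 1 fall each. In that fit 1492 of all 14244 genes tested rose and 1163 fell. In the 6 female libraries alone Vwf, Ptprb, Mmrn2, Nos3, Notch4 and Sox18 did not pass (adjusted p 0.0808, 0.089, 0.064, 0.106, 0.089 and 0.0912).

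The HIF pathway and its known targets did not move in 1 direction. Of 34 tested 4 rose, 2 fell, and the median of -0.05 changed sign between scalings (highest 0.01). Ankrd37 (ENSMUSG00000050914), an ankyrin-repeat protein that acute hypoxia is known to induce, was at 4.83, 5.32 and 5.30 CPM in normoxia and only 0.710, 0.493 and 0.677 CPM in hypoxia. The 3 libraries of each group were close together. Its fall of -3.03 ± 0.29 (adjusted p 0.000751) was past the threshold in every setting run. The transcriptional repressor Bhlhe40 also fell, from 73.8, 71.9 and 45.3 CPM to 27.9, 25.3 and 32.3 CPM (-1.16 ± 0.27; adjusted p 0.0316). Ldha (ENSMUSG00000063229), the muscle-type lactate dehydrogenase subunit, rose from 724, 688 and 556 CPM to 1189, 1198 and 1207 CPM, and the 3 hypoxia libraries were nearly equal (0.87 ± 0.11; adjusted p 0.00350). Ndufa4l2, which replaces a respiratory chain subunit under low oxygen, went from 17.3, 17.3 and 18.1 CPM to 24.7, 36.4 and 34.8 CPM (0.87 ± 0.14; adjusted p 0.0105). The other rises were the stress protein Ddit4 (1.08 ± 0.26; adjusted p 0.0376) and the enolase Eno1 (0.48 ± 0.11; adjusted p 0.0285).

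Most well-known targets stayed below the threshold. The oxygen sensor Egln3 came close, at 107, 104 and 76.2 CPM and 154, 175 and 155 CPM with no overlap (0.76 ± 0.22; adjusted p 0.0639). The glucose transporter Slc2a1 was at 13.5, 15.1 and 17.6 CPM and 14.3, 15.8 and 14.5 CPM (-0.05 ± 0.15; adjusted p 0.885), and phosphoglycerate kinase Pgk1 at 472, 458 and 421 CPM and 513, 496 and 465 CPM (0.13 ± 0.09; adjusted p 0.392). Hif1a, the oxygen-regulated subunit itself, which is controlled mainly as protein, was at 58.04, 58.3 and 52.4 CPM and 40.97, 45.5 and 48.4 CPM (-0.32 ± 0.14; adjusted p 0.190). These 4 were named after their values were seen. Of 30 genes of glycolysis and glycogen 3 rose, Ldha, Eno1 and the phosphofructokinase Pfkp (87.4, 72.5 and 83.98 CPM against 109, 129 and 137 CPM; 0.62 ± 0.16, adjusted p 0.0444), 0 fell, and the median was -0.11.

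Ankrd37 and Ldha changed in opposite directions, and the promoters of both hold the core letters of the hypoxia response element (ACGTG or GCGTG). The core was present in 24 of 29 matched windows of the list (82.8%) and in 62.2% of the 10542 windows of genes tested. Their first RefSeq windows (GRCm38.p6) are shown 5′ to 3′ on the gene's strand with the core or its reverse complement in capitals.
Ankrd37, chr8:45999801-46000100 (-): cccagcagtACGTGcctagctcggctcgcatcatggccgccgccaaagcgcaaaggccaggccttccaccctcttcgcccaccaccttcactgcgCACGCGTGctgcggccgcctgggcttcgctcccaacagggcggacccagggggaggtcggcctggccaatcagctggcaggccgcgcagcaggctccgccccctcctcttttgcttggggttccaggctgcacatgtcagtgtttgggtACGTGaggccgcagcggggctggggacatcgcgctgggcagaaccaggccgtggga
Ldha, chr7:46845554-46845853 (+): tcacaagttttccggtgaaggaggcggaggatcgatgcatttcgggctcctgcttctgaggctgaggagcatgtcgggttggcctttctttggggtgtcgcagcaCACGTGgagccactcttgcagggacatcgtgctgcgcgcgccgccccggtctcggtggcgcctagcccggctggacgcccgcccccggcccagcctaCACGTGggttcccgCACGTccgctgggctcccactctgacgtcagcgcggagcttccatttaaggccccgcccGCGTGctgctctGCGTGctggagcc
With both strands and overlaps counted, the Ankrd37 window held 4 matches and the Ldha window 7. Such a short core says nothing about which factor was bound.

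Part of the genes that bring fatty acids into the cell and oxidise them fell. Of 26 tested 7 fell, 0 rose, and the median was -0.58. Cpt2 (ENSMUSG00000028607), the inner-membrane carnitine transferase that admits long-chain fatty acids to mitochondria, was at 229, 248 and 265 CPM and 162, 120.1 and 109 CPM. All hypoxia libraries were below normoxia, hypoxia 1 by the least. Its log2 fold change was -0.92 ± 0.17 (adjusted p 0.0161). The fatty acid binding protein Fabp3 went from 3397, 3501 and 4278 CPM to 2708, 2079 and 1829.6 CPM (-0.76 ± 0.15; adjusted p 0.0214). Hadhb, a subunit of the trifunctional enzyme of beta-oxidation, went from 1862, 1874 and 2233 CPM to 1457, 948 and 891 CPM (-0.86 ± 0.18; adjusted p 0.0254). The fatty acid transporter Slc27a1 went from 26.7, 44.7 and 79.2 CPM to 21.1, 11.3 and 13.9 CPM (-1.71 ± 0.38; adjusted p 0.0301). The other falls were the auxiliary oxidation enzymes Decr1 and Eci2 and the malonyl-CoA decarboxylase Mlycd. Without normoxia 3, in which these genes were highest, 3 of the 26 fell. Without hypoxia 1, 23 fell, against 826 of all 14331 genes tested. In the 6 female libraries alone 0 passed.

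Of 17 targets of PPAR alpha 6 fell, 0 rose, and the median was -1.03. The largest fall in the list, that of Acot1, depended on normoxia 3 in size. Acot1, a cytosolic thioesterase of fatty acyl-CoA, was at 4.57, 6.37 and 43.7 CPM in normoxia 1, 2 and 3 and at 2.96, 1.26 and 0.989 CPM in hypoxia. Normoxia 3 was several-fold above every other library. The fold change of -3.40 ± 0.80 (adjusted p 0.0341) became -1.66 without normoxia 3 (adjusted p 0.0499). Ucp3, a mitochondrial carrier that follows fatty acid supply, did not depend on that library in size: it went from 42.6, 51.5 and 50.1 CPM to 19.1, 12.8 and 8.48 CPM, -1.84 ± 0.48 with all libraries and -1.81 without normoxia 3 (adjusted p 0.0447 and 0.0662). Pdk4, the kinase that closes pyruvate dehydrogenase, was at 189, 229 and 1240.3 CPM and 198, 149 and 172 CPM. Its difference of -1.68 ± 0.63 did not pass (adjusted p 0.131) and was -0.27 without normoxia 3. Without that library the list had 3 falls and 1 rise.

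Few other mitochondrial genes passed. Among 21 genes of the tricarboxylic acid cycle 0 passed by edgeR, 2 by DESeq2 and 0 by limma voom (4 at an unadjusted p under 0.05), with a median of -0.24 and hypoxia 1, 2 and 3 at medians of 0.09, -0.42 and -0.51 from the normoxia mean. Without hypoxia 1, 14 of them fell, against 826 of all 14331 genes tested. Of 43 nuclear genes of the respiratory chain 1 fell, a share near the 2.02% of all genes tested: the muscle subunit Cox7a1 of cytochrome oxidase, from 347, 357 and 385 CPM to 201, 241 and 222 CPM (-0.71 ± 0.15; adjusted p 0.0260). All 13 mRNAs made from mitochondrial DNA had negative fold changes, with a median of -0.33, but only mt-Atp6 (-0.57 ± 0.15; adjusted p 0.0436) and mt-Co2 (-0.60 ± 0.16; adjusted p 0.0447) passed. mt-Co2, a core subunit of cytochrome oxidase, was at 3369, 3116 and 3759.9 CPM and 1870.2, 2213 and 2659 CPM. Mitochondrially encoded transcripts took 25.4 ± 0.968% of counts in normoxia and 22.2 ± 0.781% in hypoxia (SD, n = 3), with no overlap. The coactivator Ppargc1a, which drives mitochondrial gene expression, was at 125, 115 and 187 CPM and 117, 53.1 and 59.1 CPM (-0.90 ± 0.32; adjusted p 0.112), and Ppara at 28.99, 30.1 and 28.3 CPM and 23.1, 6.90 and 7.29 CPM (-1.23 ± 0.39; adjusted p 0.0796). Both were named after their values were seen, and in both hypoxia 2 and 3 were low and hypoxia 1 close to normoxia. Of 14 ventricular cardiomyocyte markers 0 passed by edgeR, 1 by DESeq2 and 0 by limma voom (1 at an unadjusted p under 0.05), with a median of -0.15. Their summed level was 73952 to 82936 CPM in normoxia, 83917 CPM in hypoxia 1, and 62588 and 63258 CPM in hypoxia 2 and 3. The part of cardiomyocyte RNA in the lower metabolic genes was not tested.

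**Figure D4:**
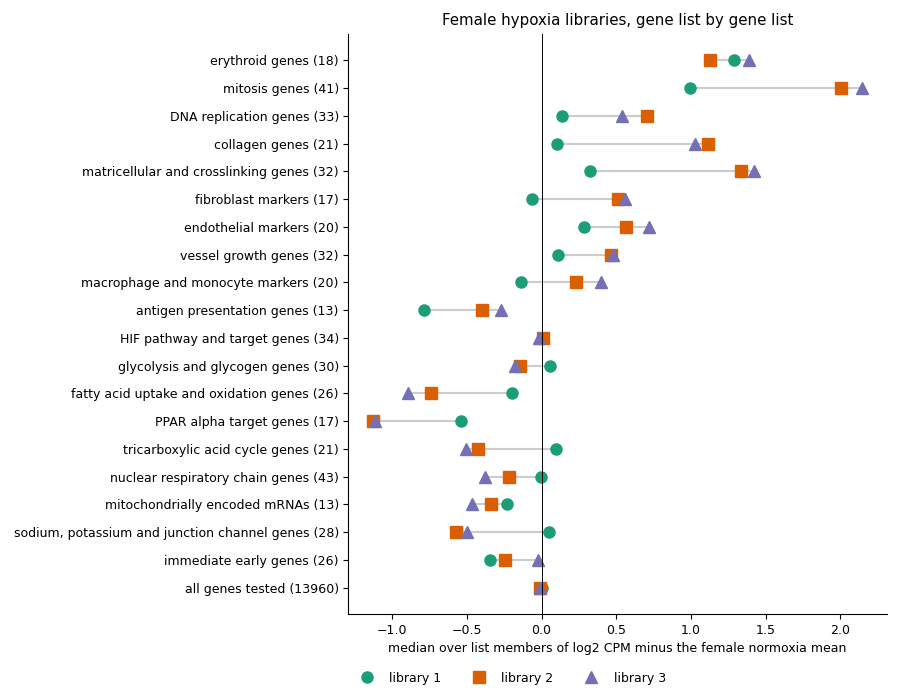
For each gene list (number of genes tested in brackets) the median over its members of log2 CPM minus the mean of the 3 female normoxia libraries is on the x axis, with symbols for hypoxia 1, 2 and 3. Hypoxia 1 lies between the others in erythroid genes and is the lowest in antigen presentation genes, but lies nearer to 0 in mitosis, collagen, matricellular and fatty acid genes; all genes tested lie near 0.

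Channel genes of the cardiomyocyte membrane gave 1 of the clearest single-gene changes. Scn4b (ENSMUSG00000046480), a beta subunit that sets the gating of the cardiac sodium channel, was at 36.7, 43.98 and 32.1 CPM in normoxia and 9.24, 6.03 and 5.10 CPM in hypoxia. The groups were far apart and hypoxia 1 was low as well. The fall of -2.47 ± 0.27 (adjusted p 0.00158) was past the threshold in every setting run. Of 28 sodium, potassium and junction channel genes 3 fell and 1 rose, with a median of -0.34. Gja5, connexin 40 of the fast conduction system, went from 4.90, 6.08 and 6.10 CPM to 3.26, 3.01 and 3.49 CPM (-0.81 ± 0.18; adjusted p 0.0315), whereas Gjc1, connexin 45, rose from 16.7, 17.95 and 17.4 CPM to 21.2, 27.9 and 29.1 CPM (0.59 ± 0.14; adjusted p 0.0352). With average transcript length offsets neither passed, Gjc1 at 0.06 and Gja5 at -1.42 (adjusted p 0.926 and 0.132).

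Calcium handling and contractile genes varied between libraries of 1 group. Of 22 calcium handling genes 1 rose, near the 3.97% of all genes tested, and 0 fell. The 1 rise was the inositol trisphosphate receptor Itpr2 (0.59 ± 0.15, adjusted p 0.0477), which did not pass with average transcript length offsets (0.78, adjusted p 0.146). With the edgeR fit and no such offsets, the list's counts varied with the libraries kept. There were 2 rises and 6 falls without hypoxia 1, 1 and 4 without normoxia 3, and 3 and 10 without both. Over all genes tested there were 1255 rises and 826 falls among 14331 without hypoxia 1. Without both libraries there were 1492 and 1163 among 14244. The calcium pump Atp2a2, which refills the sarcoplasmic reticulum, was at 12943, 14426 and 13396 CPM and 11593, 6435 and 6625 CPM (-0.73 ± 0.22; adjusted p 0.0670). The adult myosin Myh6 was at 14190.3, 18030.0 and 15407 CPM and 18332, 7687 and 9636 CPM. Hypoxia 1 was the highest of the 6 libraries and hypoxia 2 and 3 the lowest. The difference was -0.42 ± 0.27 (adjusted p 0.371), and -0.87 without hypoxia 1 (adjusted p 0.0138). The fetal myosin Myh7 was at 65.5, 58.6 and 659 CPM and 187, 139.9 and 458 CPM, with normoxia 3 the highest library (0.01 ± 0.86; adjusted p 0.998). Without normoxia 3 it was 2.08 (adjusted p 0.0796), and without normoxia 3 and hypoxia 1 it was 2.28 and passed (adjusted p 0.0495).

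Of 20 hypertrophy and fetal cardiac genes 2 rose and 0 fell. Mybpc2, the myosin binding protein of fast skeletal muscle, went from 18.6, 11.1 and 19.4 CPM to 59.4, 51.3 and 61.9 CPM (1.81 ± 0.28; adjusted p 0.00963). Nmrk2, a kinase that makes NAD from nicotinamide riboside, went from 9.66, 8.65 and 3.33 CPM to 34.9, 27.8 and 43.2 CPM (2.29 ± 0.49; adjusted p 0.0267). In both, hypoxia 1 lay between hypoxia 2 and 3. The natriuretic peptides varied within groups: Nppa was at 198, 107 and 249 CPM and 183, 463 and 1046 CPM (1.61 ± 0.59; adjusted p 0.121), and Nppb at 158, 103 and 792 CPM and 623, 346 and 705 CPM (0.67 ± 0.77; adjusted p 0.630). Without hypoxia 1 Nppa passed, at 2.04 (adjusted p 0.0276). Of 22 natriuretic and vasoactive genes 2 rose and 1 fell: the angiotensin-converting enzyme Ace from 49.5, 50.8 and 33.7 CPM to 61.8, 113 and 116 CPM (1.12 ± 0.24; adjusted p 0.0261), Nos3 as above, and the angiotensin receptor Agtr1a from 32.5, 39.2 and 25.8 CPM to 25.7, 15.999 and 15.6 CPM (-0.77 ± 0.20; adjusted p 0.0454).

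Immune genes changed in separate directions. Of 13 antigen presentation genes 3 fell and 0 rose, with a median of -0.52 and hypoxia 1 the lowest library. H2-Aa, a class II chain, went from 46.7, 52.9 and 28.8 CPM to 16.1, 24.1 and 19.6 CPM (-1.10 ± 0.26; adjusted p 0.0341). Its partner H2-Ab1 went from 36.98, 40.1 and 21.95 CPM to 12.96, 19.5 and 15.5 CPM (-1.05 ± 0.27; adjusted p 0.0436), and the class I chain H2-K1 from 204, 202 and 193 CPM to 117, 132 and 146 CPM (-0.60 ± 0.14; adjusted p 0.0309). Of 20 macrophage and monocyte markers 3 rose, 0 fell, and the median was 0.16. Lgals3, a galectin of activated macrophages, went from 3.29, 3.74 and 3.33 CPM to 7.34, 10.96 and 12.4 CPM (1.57 ± 0.22; adjusted p 0.00567). The monocyte antigen Ly6c2 went from 5.15, 5.96 and 5.12 CPM to 11.8, 11.999 and 11.97 CPM (1.14 ± 0.16; adjusted p 0.00628) and passed in every setting run. The lipid receptor Trem2 went from 1.03, 1.70 and 1.48 CPM to 2.19, 5.70 and 5.47 CPM (1.66 ± 0.37; adjusted p 0.0305). The pan-leukocyte marker Ptprc was at 7.15, 9.94 and 7.40 CPM and 5.09, 10.2 and 8.74 CPM (-0.03 ± 0.25; adjusted p 0.964). By edgeR 0 of 20 interferon-stimulated and 0 of 18 acute phase and complement genes passed (0 and 2 at an unadjusted p under 0.05), by DESeq2 0 and 1, and by limma voom 0 and 0.

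Stress genes showed no common induction. Of 19 cytosolic and mitochondrial heat shock genes 3 fell and 0 rose: Hspe1 and Hspd1, the chaperonin pair of mitochondria, and the small heat shock protein Hspb6. Hspd1 was at 409, 408 and 418 CPM and 304, 229 and 223 CPM (-0.71 ± 0.13; adjusted p 0.0136) and Hspe1 at 97.2, 89.2 and 117 CPM and 64.9, 61.9 and 55.96 CPM (-0.73 ± 0.12; adjusted p 0.0116). The list's median was 0.06. Of 23 antioxidant and metallothionein genes 1 rose, the glutathione peroxidase Gpx1 (0.59 ± 0.13; adjusted p 0.0285), a share near the 3.97% of all genes tested. Of 24 genes of the integrated stress response 1 rose, Ddit4, again near that share. Of 19 chaperones of the endoplasmic reticulum 0 passed by edgeR, DESeq2 or limma voom (1 at an unadjusted p under 0.05). The muscle ubiquitin ligase Fbxo32 fell, from 132, 132 and 62.7 CPM to 52.7, 61.4 and 40.5 CPM (-1.08 ± 0.27; adjusted p 0.0417), the 1 call among 20 atrophy genes.

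Normoxia 3 set the level of several gene groups in the control arm. Against the mean of normoxia 1 and 2 its median log2 difference was 1.66 over 26 immediate early genes, 0.88 over 20 glucocorticoid targets, 0.82 over the PPAR alpha targets and 0.90 over 7 adipocyte markers. It was -0.87 over the collagens, -0.67 over DNA replication genes and -0.70 over interferon-stimulated genes. Egr1, an immediate early transcription factor, was at 80.7, 32.1 and 272 CPM in normoxia 1, 2 and 3 and at 15.9, 11.7 and 12.3 CPM in hypoxia. Fos was at 8.12, 4.04 and 49.5 CPM and 2.19, 1.70 and 3.02 CPM. Both were highest in normoxia 3, and both were also lower in hypoxia than in normoxia 1 and 2. The fall of Egr1, -3.27 ± 0.87 (adjusted p 0.0490), was the 1 call in the immediate early list and was -2.08 without normoxia 3 (adjusted p 0.112). The difference of Fos was -3.15 ± 0.89 (adjusted p 0.0588). The median of the list went from -0.62 to 0.38 without that library, with 4 rises and 0 falls. The summed adipocyte markers were at 868, 941 and 1486 CPM in normoxia 1, 2 and 3 and at 1119.9 to 1288 CPM in hypoxia. Adipoq, the marker that defines the cell type, was at 1.03 CPM or less in all 6. Fabp4 is in both this list and the endothelial one, and the part of fat cells in the sum was not tested.

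Clock genes showed the opposite dependence. With all libraries 1 of 19 fell, Bhlhe40, and without normoxia 3 there were 2 rises and 5 falls. The clock output factor Dbp was at 72.9, 89.9 and 5.36 CPM and 24.2, 19.9 and 9.79 CPM, and the clock repressor Ciart at 8.31, 14.97 and 3.02 CPM and 3.14, 4.05 and 2.55 CPM. Normoxia 3 lay below the hypoxia libraries in Dbp and within their range in Ciart, and normoxia 1 and 2 lay above them in both. Their differences were -1.65 ± 0.73 and -1.43 ± 0.53 (adjusted p 0.191 and 0.124), and -2.19 and -1.84 without normoxia 3 (adjusted p 0.0194 and 0.0367). Cry1, a core clock repressor, was at 5.48, 6.02 and 12.7 CPM and 16.6, 15.1 and 16.2 CPM (0.98 ± 0.29; adjusted p 0.0653), and 1.47 without normoxia 3 (adjusted p 0.00704). The hour of tissue collection is not in the labels, and its part in the clock values was not tested. Ccn2, a matricellular factor that stretch induces, was high in normoxia 3 as in hypoxia, 70.6, 47.95 and 262 CPM against 341, 272 and 424 CPM (1.45 ± 0.56; adjusted p 0.140), and passed without that library at 2.54 (adjusted p 0.0131).

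**Figure D5:**
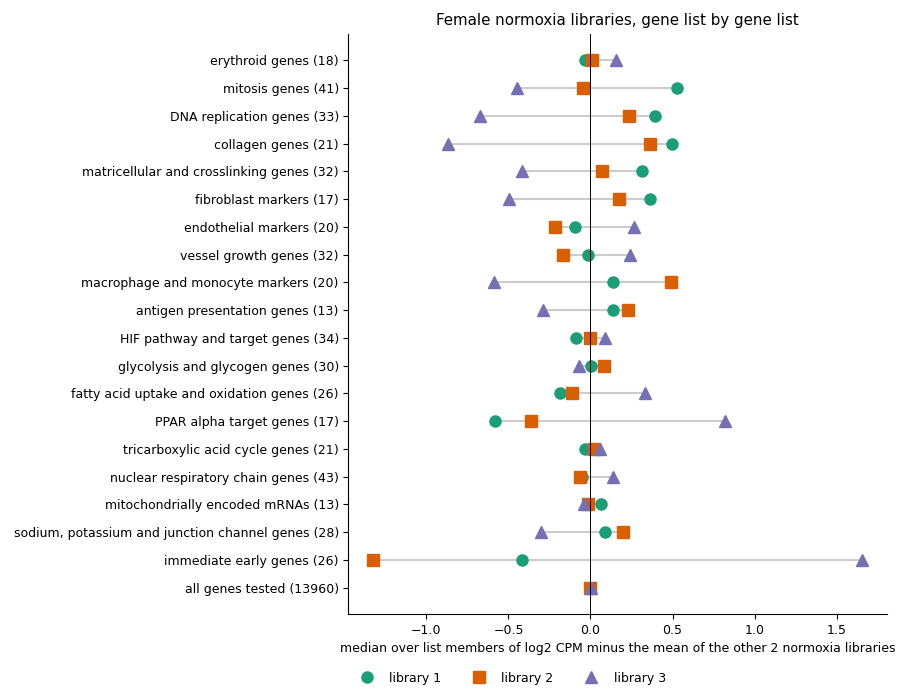
For each gene list (number of genes tested in brackets) the median over its members of log2 CPM of 1 female normoxia library minus the mean of the other 2 is on the x axis. Normoxia 3 is the highest library in immediate early genes (1.66) and PPAR alpha targets (0.82) and the lowest in collagens (-0.87); erythroid genes differ little.

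Hypoxia 1 stood near the other hypoxia libraries in some lists and apart from them in others, as median log2 differences from the normoxia mean. Hypoxia 1, 2 and 3 stood at medians of 1.29, 1.13 and 1.39 in erythroid genes, and of -0.79, -0.40 and -0.27 in antigen presentation genes. They stood at 0.99, 2.00 and 2.15 in mitosis genes, at 0.33, 1.33 and 1.42 in matricellular genes and at -0.20, -0.74 and -0.89 in fatty acid genes. In calcium handling genes they stood at 0.16, -0.31 and -0.38, and in ventricular cardiomyocyte markers at 0.14, -0.33 and -0.30. As these are single libraries, no test was made of the differences between them. Genes that did not pass with all libraries but passed without hypoxia 1 include the matrix proteins Cilp (19.5, 21.2 and 6.47 CPM against 24.4, 85.3 and 66.9 CPM) and Ltbp2, a binder of latent TGF beta complexes (2.18 ± 0.61 and an adjusted p of 0.0562 with all libraries, 2.60 and 0.0111 without hypoxia 1), and the spindle protein Ckap2l (1.92 ± 0.57 and 0.0664 with all, 2.25 and 0.0259 without). Of the 17 other settings run, Cilp, Ltbp2 and Ckap2l passed in 4, 4 and 3, some of which kept hypoxia 1.

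Genes that the lists do not hold were also among the largest changes. Dio2, the enzyme that activates thyroid hormone, rose from 2.45, 1.93 and 0.925 CPM to 4.38, 10.7 and 12.7 CPM (2.39 ± 0.52; adjusted p 0.0271, and 0.0507 without normoxia 3). Ctla2b, an inhibitor of cysteine proteases, rose from 1.80, 2.11 and 0.493 CPM to 4.62, 6.52 and 10.4 CPM (2.29 ± 0.47; adjusted p 0.0237). Among falls, the membrane protein Tmem82 went from 34.7, 36.6 and 30.8 CPM to 6.33, 11.8 and 6.77 CPM (-2.03 ± 0.29; adjusted p 0.00642). The muscle ubiquitin ligase adaptor Kbtbd13 went from 3.99, 3.92 and 3.64 CPM to 1.42, 1.21 and 0.885 CPM (-1.72 ± 0.24; adjusted p 0.00596). In both falls the groups were far apart. Inmt, an amine methyltransferase, was at 2.51, 4.68 and 14.7 CPM and 1.66, 0.712 and 0.416 CPM and again highest in normoxia 3 (-2.99 ± 0.65; adjusted p 0.0276, and -1.97 without normoxia 3). The lipid-transfer protein Stard10, which is counted among atrial markers, fell from 15.98, 19.1 and 24.4 CPM to 7.64, 7.51 and 8.38 CPM (-1.34 ± 0.20; adjusted p 0.00862). It was the 1 call among 9 tested atrial markers, whose median was above 0, at 0.30. In the epicardial list 2 of 7 rose, the transcription factor Wt1 (5.48, 4.97 and 8.39 CPM against 11.8, 20.2 and 18.5 CPM; 1.42 ± 0.24, adjusted p 0.0112) and the keratin Krt19 (2.49 ± 0.61; adjusted p 0.0398), while the list's median changed sign between scalings.

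The male libraries, which share no control with the females, mostly moved the same way. Of the 836 genes 817 (97.7%) had the same direction in males, against 74.1% of all 13960 genes. Both sexes called 523 of them in the same direction and 1 in the opposite one, out of 2174 male calls (8.47% of genes tested rose and 7.1% fell in males). The mitosis list had 21 rises and 2 falls in females and 25 and 2 in males, and the matricellular list 8 and 23 rises. The acute phase list had 0 of 18 in females and 11 rises in males. The test of the difference itself, the interaction of sex and hypoxia, called 1 gene (0.00716%) and no member of any list, with 948 genes at an unadjusted p under 0.05, so a call in 1 sex alone is not shown to be a difference between the sexes.

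That gene was Hdgfl2 (ENSMUSG00000002833), a chromatin-binding relative of hepatoma-derived growth factor, at 5.86, 5.50 and 7.03 CPM in female normoxia and at 0 in all 3 female hypoxia libraries, against 1.95 to 7.85 CPM in males. Taking 3 counts per library as the limit that a count of 0 allows, it was at least 36.9-fold lower in female hypoxia. A further 5 genes passed in females with a whole group at 0, among them Zfp746, Zfp799, Pcx and Emilin2. Zfp746, a zinc finger repressor, was at 0 in female normoxia and at 6.81, 3.84 and 7.18 CPM in hypoxia, at least 32.2-fold higher, with 1.43 to 11.6 CPM in males. The counts are those that Salmon assigned among transcripts, and whether the zeros reflect that assignment or missing RNA was not tested, so the bounds hold for assigned counts only. The interaction of Slc26a10, an anion transporter relative, did not pass (adjusted p 0.0973), although its rise in females from 16.9, 16.02 and 20.3 CPM to 58.4, 55.2 and 53.5 CPM (1.65 ± 0.15; adjusted p 0.000666) passed in every setting run and males were at 25.8, 26.1 and 36.1 CPM in normoxia and 38.2, 28.5 and 35.1 CPM in hypoxia. The chemokines Ccl9 and Ccl6 and the complement gene C4b, next in order of interaction p, did not pass in females (-0.22 ± 0.17, 0.01 ± 0.19 and -0.14 ± 0.24) or for the interaction (adjusted p 0.0973, 0.118 and 0.0973).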

How the data were processed

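RNA from frozen heart tissue was made into stranded mRNA libraries, per the labels' protocols. Per the submitters' processing notes, the authors used FastQC and Salmon with GRCm39; versions, annotation release and strand setting are not given in the sources used here. The deposited table holds, per the file headers, estimated counts, TPM and average transcript lengths per gene and library. The deposited TPM were not tested, and the deposited lengths served only in 1 alternative.

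The deposited estimated counts of 39210 genes were rounded to whole numbers. edgeR 4.0.16 (R 4.3.3) kept 13960 genes by filterByExpr, scaled by TMM and fitted group means to all 12 libraries, leaving 8 residual degrees of freedom; glmQLFTest was two-sided with Benjamini-Hochberg adjustment over all genes tested. All 4 groups share 1 estimate of spread, so male libraries bear on female p-values. Log2 CPM used a prior count of 2. Standard errors came from the fold change and the F statistic. The fit was tested on simulated data. Symbols were found for 99.3% of identifiers in an annotation of an older build, used for names and RefSeq promoters only.

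The comparison, the 53 gene lists (977 of 978 genes in the table) and the naming rule were chosen with earlier results of these data known. The rule named the 8 largest rises and falls past the threshold (no overlap, average log2 CPM 1 or more), up to 4 members with the smallest p of each list with at least 3 calls and up to 2 of the others, the 8 smallest interaction p-values, 14 genes of prior interest, and the calls most altered by normoxia 3 or hypoxia 1. List members named beyond it were chosen after their values were seen, and some genes it names are not reported here. Alternatives were DESeq2 1.42.0, limma 3.58.1 voom, RLE factors, transcript length offsets, 2 filters, fewer libraries, a replicate block, removal of mitochondrial and haemoglobin genes, and each female library left out.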

Additional observations from a re-analysis of the deposited data

Results flagged for a closer look

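Hdgfl2 was the 1 gene for which the effect of hypoxia differed between the sexes by the interaction test. The female log2 effect minus the male log2 effect was -11.09 by edgeR's quasi-likelihood test. That size depends on the prior count of the fit, since all 3 female hypoxia libraries held 0 reads of the gene. The male effect alone was 1.35 ± 0.24 (SE). The bound of 36.9-fold, against 3 counts per library, belongs to female hypoxia against normoxia and is no bound on the difference between the sexes. The female normoxia libraries held 91 to 114 estimated counts.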

How the results depend on the processing

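The 836 calls became 1693 with DESeq2, 362 with average transcript length offsets, 40 with only the 6 female libraries, 457 without male hypoxia 2 and 3, and 2655 with female normoxia 3 and female hypoxia 1 both left out. Leaving out 1 female library gave 55 to 2081. The 264 calls of at least 2-fold became 415, 162, 30, 164 and 688 in the same order, and 37 to 588 with 1 library left out. The 1 interaction call became 68 with DESeq2, 2 with limma voom, 6 with no filter, 7 without male hypoxia 2 and 3, and 1 to 2 with 1 library left out. RLE factors (853), limma voom (697), no filter (726), a stricter one (920) and removal of mitochondrial and haemoglobin genes (829) stayed within 1.5 times. Over all genes, deviations of same-numbered female libraries hardly correlated (-0.0454, 0.0198 and -0.0173), which cannot exclude a pairing that touches few genes. The replicate block gave 129 calls, 69 of at least 2-fold and 0 for the interaction. Sign changes fell on 4 named genes that had not passed: Ccl6 (-0.14 to 0.17 with 1 library left out; -0.10, -0.02 and -0.14 without normoxia 1, normoxia 3 and hypoxia 3), Myh7 (-0.67 to 2.08; -0.45, -0.47 and -0.67 without normoxia 1, normoxia 2 and hypoxia 3), Vegfa (-0.11 to 0.045 with 1 left out, 0.045 being without normoxia 3; 0.0073 with length offsets, 0.082 with both left out) and C4b (0.00064 with both left out). The cause of these shifts was not tested. The interaction could not be fitted in the 6 female libraries alone. Genes below about 1 CPM rest on few reads in each library.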

Other observations

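Further groups of receptors and nerves held few or no calls. Of 19 adrenergic and cyclic AMP genes 0 passed by edgeR, 2 by DESeq2 and 0 by limma voom (4 at an unadjusted p under 0.05). The beta receptor Adrb1, through which noradrenaline drives the heart, was at 21.8, 16.5 and 15.1 CPM in normoxia and 15.5, 9.70 and 8.80 CPM in hypoxia, with hypoxia 1 inside the normoxia range (-0.66 ± 0.22; adjusted p 0.0913). Dbh, the enzyme that makes noradrenaline in sympathetic nerves, was at 2.06, 1.46 and 0.247 CPM and 4.56, 4.66 and 4.42 CPM, with no overlap and with normoxia 3 the lowest (1.85 ± 0.54; adjusted p 0.0633). The T-type calcium channel Cacna1g, counted among conduction system markers, was at 16.6, 13.8 and 7.65 CPM and 22.1, 20.1 and 20.9 CPM (0.73 ± 0.21; adjusted p 0.0639).

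In the insulin-like growth factor axis 0 of 15 passed by edgeR, 2 by DESeq2 and 0 by limma voom (3 at an unadjusted p under 0.05). Igf1 was at 6.89, 8.54 and 4.44 CPM and 7.04, 14.8 and 15.9 CPM (0.93 ± 0.31; adjusted p 0.0980), and the binding protein Igfbp7 at 183, 156 and 107 CPM and 183, 370.1 and 338 CPM (1.00 ± 0.29; adjusted p 0.0615). In both, hypoxia 1 lay within the normoxia range, and both passed without it, at 1.22 and 1.26 (adjusted p 0.0133 and 0.0104). The metallothionein Mt2, a metal buffer that glucocorticoids induce, was at 49.8, 68.8 and 214 CPM and 23.4, 30.8 and 45.9 CPM, again with normoxia 3 far above the other libraries (-1.73 ± 0.56; adjusted p 0.0872).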
